A study of Mus musculus with 36 samples.

Results

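The nuclear genes for subunits of respiratory complexes I, II and III were read across 4 groups of mouse liver and 8 groups of mouse embryonic fibroblast (MEF) cultures. Members were the protein-coding genes whose symbols are Ndufa, Ndufb, Ndufc, Ndufs or Ndufv plus a number, the 4 genes Sdha to Sdhd, and those whose symbols start with Uqcr. This gave 48 genes among 136300 rows in the liver table and among 32266 in the MEF table. Ensembl identifiers mark 48526 of the liver rows, and other identifiers mark 87774. The latter rows held 20.5 to 24.8% of the counts in a liver library. Rows of both kinds were kept in the main liver fit, subject to its filter, and are called genes below. Shares of all tested liver genes are therefore taken over both kinds. Of the 48 members, 36 belong to complex I, 4 to complex II and 8 to complex III, and all 48 passed the filters on low values in both tables. The rule uses symbols and no measured value. It leaves out Ndufab1, Cyc1 and the mitochondrially encoded subunits, and it takes in Ndufa4, whose product is now usually assigned to complex IV. The 48 genes lie on 17 chromosomes, and no chromosome holds more than 5 of them.

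Complex I takes electrons from NADH, complex II takes them from succinate as part of the citric acid cycle, and both pass them to ubiquinone. Complex III passes them on from ubiquinol to cytochrome c, and complexes I and III pump protons as they do so. Complex II is built from nuclear genes alone, whereas complex I and complex III each also need subunits made from mitochondrial DNA. In hepatocytes the chain reoxidises the NADH and FADH2 that fatty acid oxidation yields, a load that rises in fasting.

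Polyadenylated RNA was sequenced from 12 livers and 24 MEF cultures, with 3 libraries in each group. The livers came from 4-week-old male mice killed at zeitgeber time 14, either fed freely or fasted for 24 h. They were WT or carried floxed Vps15 alleles together with Ttr CRE (genotype "Ttr CRE+, Vps15f/f"), a recombinase driven by a hepatocyte promoter, and the latter are called knockout below. Vps15, made from the gene Pik3r4, is a regulatory partner of the class 3 phosphoinositide 3-kinase. All MEF cultures were of a Vps15f/f line that received an adenovirus with GFP (labelled WT) or with CRE (labelled Vps15KO). They were kept in serum-free basal medium, without methionine for 4 h, or without it for 4 h and then with methionine again for 1 h or 4 h. The liver samples were labelled hepatocytes but were made from powdered whole liver. Replicates were separate samples by their labels, which give no litters or culture dates, and the p-values measure the spread between these samples.

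The targeted gene was read first. Pik3r4 stood at 23.1, 17.6 and 22.9 CPM (counts scaled to library size) in fed WT livers and at 24.6, 22.2 and 25.3 CPM in fed knockout livers. In fasted livers it stood at 21.0, 24.7 and 21.2 CPM in WT and at 21.1, 24.0 and 18.2 CPM in the knockout. These values overlap in both states, so the total over the gene does not check the deletion in liver. Liver libraries held 9110836 to 12870944 counts, and the trimmed-mean (TMM) scaling factors ran from 0.801 to 1.22, with all WT libraries below all knockout libraries. CPM values below carry this scaling.

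In fed WT liver the subunits spanned a wide range of levels. Per kilobase of the gene's principal annotated transcript, the median over complex I members was 71.9 CPM per kb. That over complex II was 99.9 and that over complex III was 166. Ndufa4 was highest at 253 ± 16.4 CPM per kb (SD, n = 3), followed by Uqcr11 at 219 and Uqcrb, the subunit next to the ubiquinone site of complex III, at 183. Ndufb2 was lowest at 1.98 CPM per kb, below Ndufc1 at 15.8 and Ndufs4 at 17.5. Within complex II the iron-sulfur subunit Sdhb stood at 150 CPM per kb and the flavoprotein Sdha at 102. The membrane anchors Sdhd and Sdhc stood at 98.2 and 67.2 CPM per kb. A shared reference length was used for each gene, so these levels also depend on which transcripts a liver makes.

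Fasting raised many of these genes in WT liver. Adjusted p-values were below 0.05 (edgeR quasi-likelihood test, Benjamini-Hochberg over 23875 genes) for 25 of the 48 members, all of them higher in fasted livers, whereas 26.3% of all tested genes passed in either direction and 12.4% passed as higher. The median change over the 48 members was 0.35 on the log2 scale, a fold of 1.27, and 29 members, all higher, had fed and fasted groups that did not overlap, as did 41.8% of all tested genes in either direction. Of complex I 16 of 36 members rose, of complex II 2 of 4 and of complex III 7 of 8, with median folds of 1.23, 1.24 and 1.34. Among the 7 core subunits of complex I, which carry its flavin and iron-sulfur clusters, 5 rose.

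Among the core subunits of complex I the responses spanned the whole range of the set. Ndufs7, which binds the last iron-sulfur cluster before ubiquinone, stood at 101, 93.9 and 89.7 CPM in fed WT livers and at 193, 152 and 142 CPM in fasted ones. The groups did not overlap, and the log2 change of 0.77 ± 0.13 (SE; adjusted p = 0.000456, edgeR) was the largest of the 48. Ndufs8, another iron-sulfur subunit, stood at 79.0, 75.9 and 76.6 CPM in fed WT livers and at 76.2, 76.8 and 65.0 CPM in fasted ones. Those groups overlapped, and its change of -0.09 ± 0.11 (adjusted p = 0.616, edgeR) was the lowest of the set. Ndufs1, the large subunit of the NADH-oxidising arm, had a change of 0.38 ± 0.13 (adjusted p = 0.0409, edgeR).

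The supernumerary subunits of complex I surround the core and serve in its assembly and stability. Of these 29 genes 11 rose on fasting in WT liver. Ndufa7 stood at 73.7, 70.6 and 72.3 CPM in fed WT livers and at 119, 102 and 98.9 CPM in fasted ones, without overlap, a log2 change of 0.56 ± 0.11 (adjusted p = 0.00168, edgeR). Ndufa5 stood at 29.2, 21.0 and 25.8 CPM in fed WT livers and at 46.7, 37.8 and 31.8 CPM in fasted ones. Its groups were also apart, with a change of 0.61 ± 0.18 (adjusted p = 0.0195, edgeR). At the other end Ndufv3 had a change of -0.06 ± 0.11 (adjusted p = 0.737, edgeR).

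In complex II both membrane anchors, which hold the heme and the ubiquinone site, rose and the catalytic subunits did not pass the test. Sdhc stood at 212, 203 and 225 CPM in fed WT livers and at 285, 266 and 263 CPM in fasted ones, a change of 0.35 ± 0.10 (adjusted p = 0.021, edgeR). Sdhd stood at 125, 114 and 124 CPM in fed WT livers and at 186, 162 and 153 CPM in fasted ones, a change of 0.47 ± 0.12 (adjusted p = 0.00848, edgeR). The fasted libraries of both anchors lay above all fed ones. Sdha, which oxidises succinate, stood at 303, 274 and 306 CPM in fed WT livers and at 326, 330 and 327 CPM in fasted ones, a change of 0.15 ± 0.12 (adjusted p = 0.367, edgeR). Sdhb, which carries the iron-sulfur clusters, stood at 174, 161 and 179 CPM in fed WT livers and at 244, 201 and 176 CPM in fasted ones, a change of 0.27 ± 0.14 (adjusted p = 0.16, edgeR). The Sdhb groups overlapped, and the Sdha groups did not.

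In complex III the Rieske iron-sulfur protein Uqcrfs1 stood at 125, 109 and 123 CPM in fed WT livers and at 178, 168 and 158 CPM in fasted ones. The groups were apart, with a change of 0.50 ± 0.11 (adjusted p = 0.00384, edgeR). Uqcr10, a small subunit beside cytochrome c1, had the largest change of the complex, from 79.4, 71.6 and 68.7 CPM in fed WT livers to 119, 107 and 90.7 CPM in fasted ones (0.53 ± 0.11, adjusted p = 0.00315, edgeR). Uqcrb, at 0.19 ± 0.14 (adjusted p = 0.347, edgeR), was the 1 member of the complex that did not pass.

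The fasting response of WT liver rested on few libraries. Without fasted WT library a, which held the highest of the 3 fasted values for 45 of the 48 members, 5 members passed, and without fed WT library b, fed WT library c or fasted WT library b 7, 12 and 15 passed. The median change stayed between 0.24 and 0.40 on the log2 scale whichever of the 6 libraries was left out. With library sizes alone in place of TMM, the median of all tested genes moved by -0.19 and 4 members passed. Without a filter on low counts, 5 passed.

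**Figure D1:**
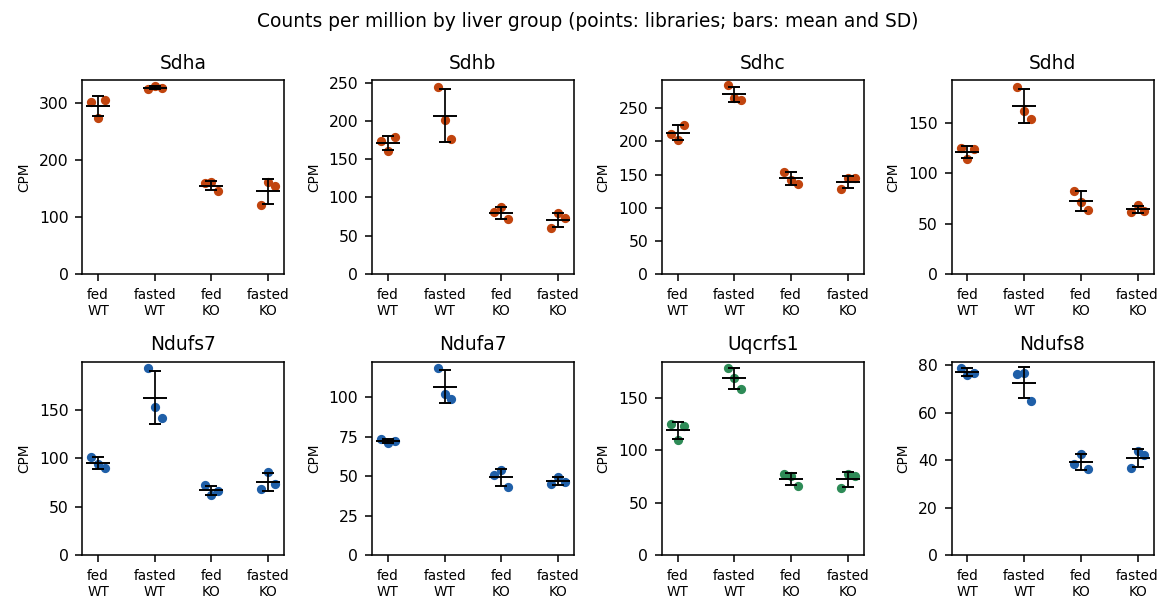
Level of 8 subunit genes in every liver library, in TMM-scaled CPM, for fed and fasted WT and knockout livers (points are libraries, bars are group means with SD). Fasted WT libraries are highest for Sdhd, Ndufs7, Ndufa7 and Uqcrfs1, and every knockout library lies below every WT library of the same feeding state for each gene shown.

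In knockout liver fasting changed none of the 48 at the same threshold, against 1.39% of all tested genes. The median change was 0.00 on the log2 scale, 24 estimates were above 0 and 24 below, and 0 members had an unadjusted p below 0.05 by edgeR. DESeq2 also called 0. The estimates ran from -0.18 ± 0.14 for Sdhb (adjusted p = 0.519, edgeR) to 0.49 ± 0.26 for Ndufs5 (adjusted p = 0.349, edgeR), whose counts are shared with a near-identical copy described below. In knockout livers Sdhd stood at 82.5, 71.4 and 63.6 CPM when fed and at 61.3, 68.5 and 62.5 CPM when fasted. Ndufs7 stood at 72.1, 62.3 and 66.3 CPM when fed and at 68.3, 85.6 and 73.2 CPM when fasted. Fed and fasted knockout livers overlapped for both genes.

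The difference between the 2 fasting responses was tested itself. Of the 48 members 4 passed, all with a smaller change in the knockout, against 12.1% of all tested genes in either direction and 5.7% in that direction; 45 estimates were below 0 and their median over the 48 was -0.31. They were Sdhd at -0.64 ± 0.17 (adjusted p = 0.0202, edgeR), Ndufa7 at -0.63 ± 0.16 (adjusted p = 0.0165), Ndufs7 at -0.60 ± 0.18 (adjusted p = 0.0462) and Uqcrfs1 at -0.51 ± 0.16 (adjusted p = 0.0462). Ndufa5 had the lowest estimate, -0.67 ± 0.25, and did not pass (adjusted p = 0.102, edgeR). The count was 0 with library sizes alone or without a filter on low counts, and 12 when only Ensembl genes were kept. Leaving out 1 library gave 0 without fasted WT a, 1 without fed WT b, fed knockout a or fasted knockout a, 2 without fed WT a, fed WT c, fasted WT b or fasted knockout c, and up to 6 otherwise.

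Knockout livers held less transcript of nearly every subunit gene. In the fed state 47 of the 48 members were lower in the knockout (edgeR, adjusted p below 0.05), against 46.3% of all tested genes in either direction and 23% lower. The median change was -0.74 on the log2 scale, a fold of 0.600 and thus 40.0% lower. In the fasted state all 48 were lower, against 56.2% of all genes in either direction and 28.1% lower, with a median change of -1.04 and a median fold of 0.486. The groups of WT and knockout libraries did not overlap for 47 members in the fed state and for 48 in the fasted state, against 56.5% and 61.7% of all tested genes in either direction. Both comparisons use livers of the same kind but share no library, and 47 members were lower in both. For 45 members the knockout change was larger in size in fasted than in fed livers; since 4 passed the test of that difference, it is given here as a description. Scaling by library size with no TMM factor shifted all tested genes by a median of 0.39 in fed and 0.52 in fasted livers, and then 33 and 42 members were called lower, at medians of -0.36 and -0.53.

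**Figure D2:**
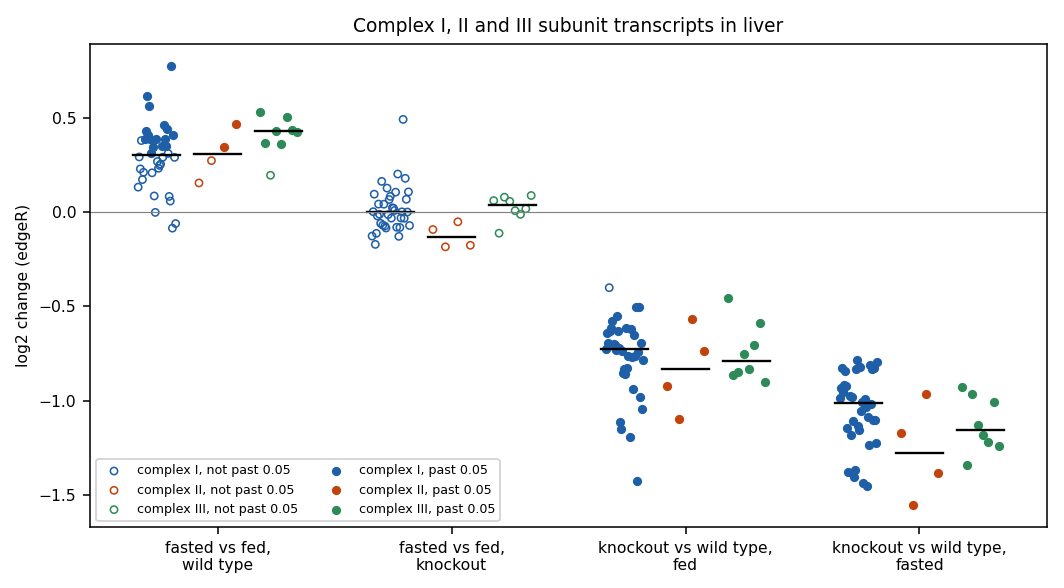
Log2 change of all 48 subunit genes in the liver comparisons, by complex (points are genes, estimated by edgeR, filled where the adjusted p is below 0.05, and lines are medians per complex). The points of the fasting response in WT liver lie mostly above 0, those in knockout liver around 0, and both sets of knockout changes lie below 0.

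The falls were of similar size in the 3 complexes. In fed livers the median fold of the knockout against WT was 0.604 over complex I, 0.564 over complex II and 0.578 over complex III, and in fasted livers it was 0.496, 0.414 and 0.449. The mean log2 level of complex II minus that of complex I in a library was 1.53 to 1.69 in fed WT, 1.54 to 1.70 in fasted WT, 1.50 to 1.58 in fed knockout and 1.37 to 1.40 in fasted knockout livers. The fasted knockout values lay below all others, a description over 4 complex II genes with no test. For complex III minus complex I the group means were 1.01, 1.13, 1.03 and 1.04 in the same order.

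The transcripts of all 4 complex II genes were lower in the knockout. In knockout livers Sdha stood at 160, 161 and 145 CPM when fed and at 121, 162 and 154 CPM when fasted, all below the WT values given above. Its change was -0.92 ± 0.12 in fed livers (adjusted p = 1.4e-05, edgeR) and -1.17 ± 0.12 in fasted livers (adjusted p = 7.88e-07). Sdhb stood at 81.1, 87.4 and 72.0 CPM in fed knockout livers and at 59.9, 79.1 and 72.6 CPM in fasted ones. It had the largest fall of the 48 in the fasted comparison, -1.55 ± 0.14 (adjusted p = 2.2e-07, edgeR), and fell by 1.10 ± 0.14 in the fed comparison (adjusted p = 1.15e-05). Sdhc stood at 154, 142 and 136 CPM in fed knockout livers and at 128, 144 and 145 CPM in fasted ones. It moved least of the 4, with changes of -0.56 ± 0.10 in fed livers (adjusted p = 0.000345, edgeR) and -0.96 ± 0.10 in fasted livers (adjusted p = 1.34e-06). Sdhd changed by -0.74 ± 0.12 in fed livers (adjusted p = 0.000111, edgeR) and by -1.38 ± 0.12 in fasted livers (adjusted p = 1.5e-07).

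In complex I the core subunit Ndufs1 stood at 79.6, 72.3 and 83.9 CPM in fed WT and at 41.7, 41.9 and 39.6 CPM in fed knockout livers. In fasted livers it stood at 115, 102 and 90.6 CPM in WT and at 30.8, 43.5 and 38.4 CPM in the knockout, the largest fall of the complex in that state (-1.45 ± 0.13, adjusted p = 2.84e-07, edgeR). WT and knockout were apart in both states. Ndufs8, which did not pass for fasting in WT liver, was lower in the knockout, at 38.4, 42.8 and 36.1 CPM when fed and at 36.7, 44.0 and 42.2 CPM when fasted. Its change was -0.98 ± 0.11 in fed livers (adjusted p = 4.69e-06, edgeR) and -0.83 ± 0.11 in fasted livers (adjusted p = 1.58e-05). Ndufb3, a small membrane-arm subunit, had the smallest fall in fasted livers, -0.78 ± 0.16 (adjusted p = 0.000666, edgeR). In complex III Uqcr11 fell most in fasted livers, by 1.34 ± 0.12 on the log2 scale (adjusted p = 2.14e-07, edgeR), and Uqcr10 least, by 0.92 ± 0.12 (adjusted p = 6.3e-06). In fed livers the order ran from Uqcrq at -0.90 ± 0.11 (adjusted p = 8.68e-06, edgeR) to Uqcr10 at -0.46 ± 0.11 (adjusted p = 0.00429).

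**Figure D3:**
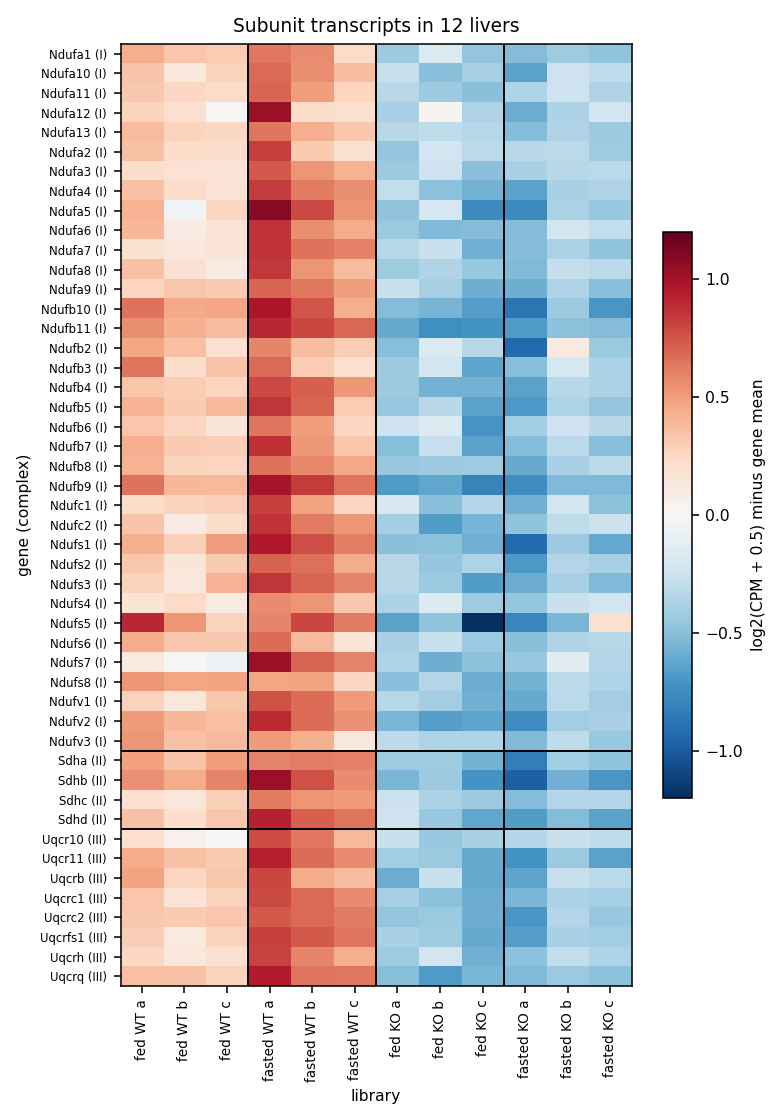
Level of each of the 48 subunit genes (rows, by complex) in each of the 12 liver libraries (columns), as log2(CPM + 0.5) minus the gene's mean over the libraries, with blue below and red above that mean. Knockout columns are below the mean for nearly all genes, and fasted WT library a is the highest of the 3 fasted WT libraries for 45 of the 48.

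The marker genes of cell types moved with these comparisons. Of 18 hepatocyte markers, which include Alb, Ttr and Cps1, 17 were lower in fed and 18 in fasted knockout livers, at medians of -1.18 and -1.47 on the log2 scale. Their summed level ran from 49639 to 52422 CPM in fed WT, from 62083 to 64225 in fasted WT, from 20854 to 24656 in fed knockout and from 21066 to 24267 in fasted knockout livers. Of 20 macrophage and Kupffer cell markers 17 were higher in fed and 20 in fasted knockout livers, and 20 were lower in fasted than in fed WT livers. Their summed level ran from 2086 to 2645 CPM in fed WT, from 690 to 955 in fasted WT, from 4034 to 4510 in fed knockout and from 3473 to 3981 in fasted knockout livers. Fewer hepatocytes in a liver and less RNA per hepatocyte cannot be told apart in bulk samples, and the part of these shifts in the subunit changes was not tested.

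Genes of the pathway outside the set were counted from lists. Of all 23875 tested genes, 12.4% were higher and 3333 genes were lower on fasting in WT liver. In the knockout 23% were lower in fed and 28.1% in fasted livers. Of 11 nuclear subunits of complex IV, 8 rose on fasting in WT liver, none passed in knockout liver, and 10 were lower in the knockout in each state. Of 17 tested nuclear subunits of complex V, the ATP synthase, 9 rose on fasting in WT liver and 16 and 17 were lower in fed and fasted knockout livers. All 8 mitochondrially encoded subunits of complexes I and III were lower in the knockout in both states, at medians of -1.04 and -1.32, and none passed for fasting. Assembly factors of complex I, which are not part of the finished enzyme, gave 2 of 18 higher on fasting in WT liver, near the share over all genes. Of these 18, 13 and 15 were lower in fed and fasted knockout livers. Of 10 assembly factors of complexes II and III, 1 was lower on fasting in WT liver, and 7 and 6 were lower in fed and fasted knockout livers. Of 14 citric acid cycle enzymes 9 were higher and 1 lower on fasting in WT liver, and 7 and 12 were lower in fed and fasted knockout livers. Cyc1, the cytochrome c1 of complex III, had a fasting change of 0.26 in WT liver (adjusted p = 0.142, edgeR) and fell by 1.10 in fed (adjusted p = 3.75e-06) and by 1.33 in fasted knockout livers (adjusted p = 3.27e-07).

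Transcriptional regulators of respiratory genes did not all follow. Ppargc1a, a coactivator induced by fasting, stood at 5.82, 8.83 and 7.84 CPM in fed WT and at 50.6, 30.2 and 26.3 CPM in fasted WT livers. In knockout livers it stood at 15.6, 11.8 and 16.1 CPM when fed and at 5.16, 8.99 and 4.56 CPM when fasted. It rose by 2.25 ± 0.28 on fasting in WT liver (adjusted p = 3.4e-05, edgeR) and was lower after fasting in the knockout (-1.21, adjusted p = 0.0432), and the difference between these responses was -3.46 ± 0.39 (adjusted p = 7.63e-05). In fed livers it was higher in the knockout (0.96, adjusted p = 0.011, edgeR), where 47 subunit genes were lower. Its relative Ppargc1b rose on fasting in WT liver (1.29, adjusted p = 0.000459, edgeR) and was lower in fasted knockout livers (-0.80, adjusted p = 0.00355). Esrra, an orphan nuclear receptor, was lower in fed (-0.43, adjusted p = 0.0028, edgeR) and fasted knockout livers (-0.57, adjusted p = 0.000241). Tfam, which packages and transcribes mitochondrial DNA, was lower in both as well (-0.73, adjusted p = 0.000338, and -0.79, adjusted p = 0.000138, edgeR). Gabpa, an ETS factor, was lower in fasted knockout livers (-0.50, adjusted p = 0.00956, edgeR), and Nrf1 passed in none of these comparisons. Whether any of these regulators bears on the subunit changes was not tested.

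Since the members moved together, their promoters were read for motifs of NRF1, ETS factors, ESRRA and YY1 and for general promoter boxes. RefSeq (GRCm38.p6) gave 40 of the 48, with a window of 250 bases before to 50 after the start, searched on both strands. The NRF1 motif (GCGCA, any 1 base, then GCGC) was found in 10 of the 40 (25.0%) and in 7.17% of 17492 promoters, and the ETS motif CCGGAAG in 8 (20.0%) and in 12.9%. The YY1 motif AANATGGC was found in 12 of the 40 (30.0%) and in 7.46% of all promoters. All 12 were of complex I, which gave 32 of the 40 promoters, against 3 of complex II and 5 of complex III. The box CCAAT was found in 35.0% of members and 42.3% of all promoters, and TATAAA in 10.0% and 14.8%. Matches of different motifs were allowed to overlap, and they are matches of letters, not sites shown to be bound. The 8 members with the NRF1 letters in the 250 bases before the start had a median change of 0.31 on fasting in WT liver, as did the 32 without. In fed knockout livers the medians were -0.74 and -0.73, and in fasted knockout livers -1.08 and -1.02. For the 6 with the ETS letters there and the 34 without, the medians were 0.40 and 0.30 on fasting, -0.75 and -0.73 in fed knockout and -1.14 and -1.01 in fasted knockout livers. For the 5 with the YY1 letters there and the 35 without, they were 0.27 and 0.31, -0.98 and -0.73, and -1.18 and -1.01. No test was made between these sets. The 250 bases before the RefSeq start follow for a pair with NRF1 letters, Sdha and Sdhd, and for Uqcrh, which moved most in MEFs. They also follow for a pair without NRF1, ETS or YY1 letters there, Ndufs7 (which holds an unmarked TATAAA) and Uqcrfs1. Each is written 5′ to 3′ on the gene's strand, with NRF1 and ETS motifs in capitals, and GENCODE starts Ndufs7 earlier, so that its window lies within that gene model.
Sdha (chr13:74350241-74350490, minus strand): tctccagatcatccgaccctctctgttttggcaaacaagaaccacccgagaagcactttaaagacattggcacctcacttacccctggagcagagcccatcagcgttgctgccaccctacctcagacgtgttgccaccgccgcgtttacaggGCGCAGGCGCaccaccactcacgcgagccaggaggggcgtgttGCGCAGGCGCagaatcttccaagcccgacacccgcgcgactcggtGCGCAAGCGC
Sdhd (chr9:50603850-50604099, minus strand): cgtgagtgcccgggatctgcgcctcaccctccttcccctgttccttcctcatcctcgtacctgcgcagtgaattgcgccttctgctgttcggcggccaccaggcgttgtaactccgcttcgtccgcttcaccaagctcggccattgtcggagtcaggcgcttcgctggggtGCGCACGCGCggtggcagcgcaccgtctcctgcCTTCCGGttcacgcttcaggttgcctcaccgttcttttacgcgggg
Ndufs7 (chr10:80249199-80249448, plus strand): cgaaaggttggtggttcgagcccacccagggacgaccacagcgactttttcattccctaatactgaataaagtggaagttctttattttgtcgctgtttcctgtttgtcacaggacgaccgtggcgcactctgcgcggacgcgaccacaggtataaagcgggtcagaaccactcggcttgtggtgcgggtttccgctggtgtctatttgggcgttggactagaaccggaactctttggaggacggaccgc
Uqcrfs1 (chr13:30545317-30545566, minus strand): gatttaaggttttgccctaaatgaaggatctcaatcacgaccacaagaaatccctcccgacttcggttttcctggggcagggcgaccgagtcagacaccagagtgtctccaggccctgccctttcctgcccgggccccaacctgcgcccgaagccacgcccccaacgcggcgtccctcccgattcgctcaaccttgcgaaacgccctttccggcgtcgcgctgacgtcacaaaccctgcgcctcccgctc
Uqcrh (chr4:116075071-116075320, minus strand): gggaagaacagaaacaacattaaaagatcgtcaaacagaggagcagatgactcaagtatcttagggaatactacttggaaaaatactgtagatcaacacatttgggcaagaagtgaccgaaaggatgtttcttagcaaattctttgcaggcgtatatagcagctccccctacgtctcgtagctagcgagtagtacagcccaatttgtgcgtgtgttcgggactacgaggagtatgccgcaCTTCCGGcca

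Liver counts on annotated near-identical copies amounted to 122% of the member's own counts for Ndufa12, 30.8% for Ndufs5 and 15.9% for Uqcr11, and to between 0.501 and 6.13% for Ndufs3, Ndufb4, Uqcrb, Ndufs6 and Ndufb11. With its copies added, Uqcr11 fell by 1.31 in fasted knockout livers (adjusted p = 2.54e-07, edgeR), close to the value without them. Ndufs5, a small intermembrane-space subunit of complex I, matches the processed pseudogene BC002163 at 99.4% over 319 bases. The copy's share of the summed level was 2.3, 4.1 and 34.2% in fed WT, 34.0, 5.1 and 3.7% in fasted WT, 35.0, 26.1 and 64.3% in fed knockout and 32.1, 36.4 and 2.8% in fasted knockout libraries. The split thus differed between libraries of 1 group. The summed level of both lay between 31.8 and 48.1 CPM in WT and between 17.7 and 24.7 CPM in knockout livers. With the copy added, the change of Ndufs5 in fed knockout livers went from -1.42 ± 0.26 (adjusted p = 0.000386, edgeR) to -0.85 ± 0.15 (adjusted p = 0.000291), and that in fasted livers from -1.02 ± 0.26 (adjusted p = 0.00364) to -0.90 (adjusted p = 0.000127). Ndufa12, an accessory subunit, matches the copy Gm15920 at 99.5% over 402 bases, and the copy took 44.9 to 58.7% of their sum in all libraries. Ndufa12 was the 1 member that did not pass in fed knockout livers, at -0.40 ± 0.20 (adjusted p = 0.12, edgeR), and with the copy added it was lower, at -0.48 ± 0.16 (adjusted p = 0.0208). In fasted livers it was lower without the copy (-0.95 ± 0.21, adjusted p = 0.00103, edgeR) and with it (-0.79, adjusted p = 0.000554). Genes on the other strand overlap 39.0% of the exon length of Ndufb6, 30.0% of that of Ndufa13 and 19.7% of that of Uqcrc2, and the strand setting of the counting is not given in the sources used here, so these 3 may hold reads of a partner.

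**Figure D4:**
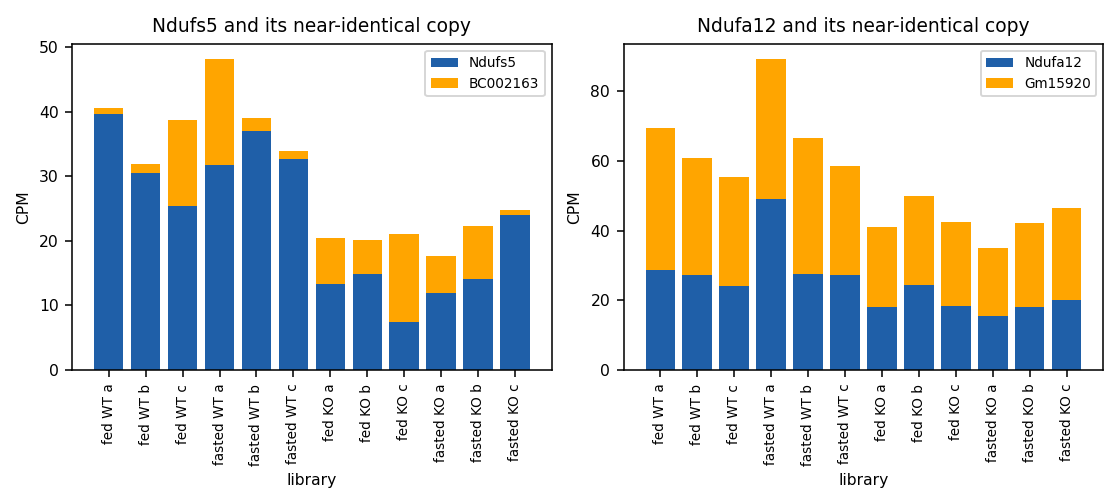
Level of Ndufs5 and Ndufa12 and of their near-identical copies in each liver library, in TMM-scaled CPM (stacked bars are the member and its copy). The share on the copy of Ndufs5 varies between libraries of a group, while the summed level is lower in every knockout library than in every WT library.

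In MEFs the column headings were checked before the subunits were read. The 8 amino acid stress genes listed, which respond when amino acids run short, were all higher in cultures headed CRE than in those headed GFP in basal and in deprived medium. All 8 were lower under CRE at 1 h and at 4 h of replenishment. Mat2a, which makes S-adenosylmethionine and is induced when methionine is short, stood at 12.30, 12.26 and 12.47 in cultures headed basal GFP and at 13.83, 13.85 and 13.97 in those headed 1 h replenished GFP (log2 values). It stood at 13.57, 13.62 and 13.60 in cultures headed basal CRE and at 11.79, 11.72 and 11.90 in those headed 1 h replenished CRE. From basal to deprived, the listed stress genes apart from Mat2a had higher means under both headings, which goes with the headings. The Chac1 mean went from 9.29 to 10.44 under GFP and from 12.31 to 13.38 under CRE. The values of basal and replenished cultures go against the headings for the medium. Pik3r4 was higher in the cultures headed basal CRE than in those headed basal GFP (0.23, adjusted p = 0.000332, limma). The cultures are therefore named by their headings, and no difference below is read as an effect of methionine or of Vps15. Library 3 headed 4 h replenished CRE stood apart from the other 2 of its group, with Mat2a at 10.85 against 11.73 and 11.70. Fibroblast markers were present, with Col1a1 at 15.2 and Vim at 16.2, and the hepatocyte gene Alb was near the lowest value of the table at 4.23.

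Between the headings the subunits differed by less than in liver and in both directions. In cultures headed basal, 39 of 48 members were lower under CRE than under GFP (limma, adjusted p below 0.05), against 58.3% of all 13914 tested genes in either direction and 28.6% lower, at a median of -0.26. In those headed deprived 33 were lower, against 62.6% and 30.6%, at a median of -0.20, and 31 were lower in both. At 1 h of replenishment 11 were higher and 5 lower, against 55% of all genes in either direction, 26.9% higher and 28.1% lower, at a median of 0.03. The 5 were Ndufc1, Ndufv2, Ndufb6, Ndufs1 and Ndufa10, all of complex I, which holds 36 of the 48 members. Ndufa10 missed the threshold under 9 alternatives, and Ndufb6 and Ndufs1 under 6 each. Without CRE library 2 of that step 10 members were called. At 4 h of replenishment 37 were higher and 0 lower, against 59.8% in either direction and 30.8% higher, at a median of 0.25. Of the members, 31 were lower under basal CRE and higher under CRE at 4 h. No share of all tested genes was counted for either 31, so neither is read as a trait of the members. Without library 3 headed 4 h replenished CRE, 29 members were called in that last comparison.

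After replenishment the members in cultures headed GFP and CRE moved in opposite directions from the deprived step, most clearly at 4 h. At 1 h the count under GFP was not far above the share of all genes called lower. From basal to deprived few members were called, all lower, also not far above that share. From the deprived heading to 4 h of replenishment, 40 members were lower in cultures headed GFP (66.1% of all genes in either direction, 32.8% lower; median -0.28), and 29 were higher in those headed CRE (51.8% and 26%; median 0.17). At 1 h 17 were lower in cultures headed GFP (59.5% and 28.8%; median -0.07) and 30 were higher in those headed CRE (60.1% and 30%; median 0.17). From basal to deprived, 9 were lower in cultures headed GFP (23.6% and 13.6%) and 8 in those headed CRE (28.5% and 13.5%). Leaving out 1 library took these to as few as 4 in either, without basal GFP 1, deprived GFP 1 or basal CRE 2, and to 5 without deprived GFP 2 or any 1 of the deprived CRE libraries. The difference between the headings was tested itself: 43 of 48 members passed for 4 h (69.1% of all genes, 35.1% higher) and 28 for 1 h (66.5%, 33.5% higher), all with the higher change under CRE, in comparisons added after the values were seen, and the 1 h and 4 h tests share the deprived libraries. For basal to deprived none passed (4.78% of all genes; 1 member had an unadjusted p below 0.05 by limma). Without library 3 headed 4 h replenished CRE, 16 members were called from deprived to 4 h in cultures headed CRE, and 41 in the test of the difference.

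The hinge subunit Uqcrh, which helps cytochrome c1 meet cytochrome c, differed most. In cultures headed GFP its log2 value was 10.52, 10.42 and 10.40 in basal and 10.02, 10.20 and 10.27 in deprived medium, 9.52, 9.55 and 9.53 at 1 h and 9.01, 9.10 and 9.02 at 4 h. In cultures headed CRE it was 9.39, 9.53 and 9.35 in basal and 9.13, 9.17 and 9.26 in deprived medium, 9.75, 9.76 and 9.70 at 1 h and 9.64, 9.72 and 9.84 at 4 h. The groups were apart at every step. CRE minus GFP was -1.03 ± 0.06 in basal (SE; adjusted p = 9.16e-16, limma) and -0.98 ± 0.06 in deprived medium (adjusted p = 2.11e-15), and 0.20 ± 0.06 at 1 h (adjusted p = 0.00544) and 0.69 ± 0.06 at 4 h (adjusted p = 1.24e-11). In complex I, Ndufc1, a small subunit of the membrane arm, moved most in basal medium, from 9.04, 8.98 and 9.07 under GFP to 8.12, 8.20 and 8.02 under CRE (-0.92 ± 0.08, adjusted p = 1.45e-11, limma). At 4 h its groups overlapped, with 7.85, 7.88 and 7.97 under GFP and 7.93, 7.99 and 8.24 under CRE (0.15 ± 0.08, adjusted p = 0.114, limma). Unlike Uqcrh it was still lower at 1 h (-0.69 ± 0.08, adjusted p = 8.72e-09, limma).

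Within complex II the anchors Sdhd and Sdhc had larger differences in MEFs than the catalytic subunits. Sdhd stood at 11.00, 10.94 and 11.03 under basal GFP and at 10.26, 10.41 and 10.32 under basal CRE (-0.66 ± 0.04, adjusted p = 3.7e-14, limma). At 4 h it stood at 10.24, 10.27 and 10.27 under GFP and at 10.70, 10.60 and 10.75 under CRE (0.42 ± 0.04, adjusted p = 8.86e-10, limma). Both pairs of groups were apart, in opposite directions. Sdhc differed by -0.37 ± 0.04 in basal medium (adjusted p = 6.61e-09, limma) and by 0.35 ± 0.04 at 4 h (adjusted p = 2.03e-08). Sdha stood at 12.38, 12.30 and 12.30 under basal GFP and at 12.10, 12.10 and 12.08 under basal CRE (-0.23 ± 0.04, adjusted p = 2.19e-06, limma), and differed by 0.11 ± 0.04 at 4 h (adjusted p = 0.0127). Sdhb differed by -0.18 ± 0.05 in basal medium (adjusted p = 0.00252, limma) and by 0.16 ± 0.05 at 4 h (adjusted p = 0.00728). At both steps the anchors had the larger differences of the 4 genes, and the differences between genes were not tested. Some subunits moved little: Ndufs3, a core subunit of complex I, had group means between 10.12 and 10.27 in all 8 groups. It was still called higher under CRE at 1 h of replenishment, by 0.15 (limma).

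**Figure D5:**
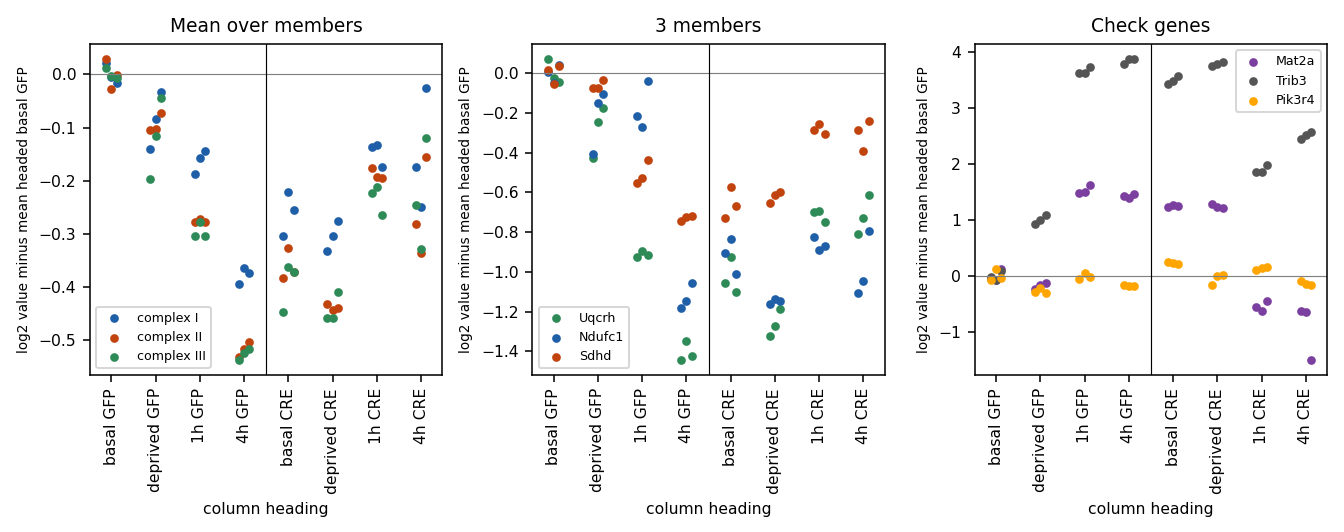
Deposited log2 values in the 24 MEF libraries by column heading, less the mean of the cultures headed basal GFP: the mean over the members of each complex (left), Uqcrh, Ndufc1 and Sdhd (middle), and Mat2a, Trib3 (an amino acid stress gene) and Pik3r4 (right); points are libraries. Uqcrh and Sdhd are lower under CRE in the basal and deprived columns and higher under CRE at 1 h and 4 h, and Mat2a has the opposite pattern.

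Nuclear subunits of complex IV did likewise. Of all 13914 tested genes, 4127 were higher and 3986 lower under basal CRE, and 4283 were higher and 4036 lower under CRE at 4 h. Of 11 subunits of complex IV 10 were lower under basal CRE and 11 were higher under CRE at 4 h, at medians of -0.26 and 0.27. Of the 8 mitochondrially encoded subunits of complexes I and III, 1 was higher under basal CRE, and at 4 h 1 was higher and 2 were lower. Complex I assembly factors were 4 higher and 6 lower of 18 under basal CRE, and 10 higher and 1 lower at 4 h.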

How the data were processed

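Polyadenylated RNA was read in 12 liver and 24 MEF libraries. For liver the authors deposited raw counts per gene (build mm10), and the submitters' processing notes list HISAT2, Subread, DESeq2 and edgeR. For MEFs the authors deposited variance-stabilised values on a log2 scale, and the same notes list STAR 2.7.10b, featureCounts, DESeq2 and limma. Other versions, filters and the strand setting are not given in the sources used here. Undoing the transformation gave whole counts within 0.01 for 100% of MEF values, totalling 19345029 to 21245006 per library. These were used for depth and alternatives.

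Liver symbols, coordinates, exon lengths and principal transcript lengths came from GENCODE M21. Liver counts of 23875 genes left by filterByExpr were scaled by TMM and tested with edgeR 4.0.16 (quasi-likelihood), with 1 mean per group. MEF log2 values of 13914 genes with a mean at least 1 above the lowest value, 4.17, were tested with limma 3.58.1 (trend, robust). Benjamini-Hochberg adjustment covered every gene of each fit, and calls were made at 0.05. In liver a standard error is the size of the log2 change over the root of its F statistic. All columns of per-sample values were used. Liver columns carry no replicate number and are called a, b and c.

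The rule for named genes took all 4 Sdh genes, the members with the largest and smallest change of complexes I and III in each comparison, those called against the direction of most, and those past the threshold in an interaction, 30 in all, not all of which are printed. Ndufb2, Ndufs4, Ndufa13, Trib3, Alb, Vim and Col1a1 were named after their values were seen. The members and gene lists were chosen with earlier results of these data known.

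MEF replicate numbers did not pair the cultures: deviations from the group means of same-numbered libraries correlated at -0.16 to 0.23, with a median of 0.02. Alternatives were DESeq2 1.42.0, library sizes alone, other filters, Ensembl genes only, symbols just outside the rule, near-identical copies added (after the data were seen), a common median, a replicate block, edgeR on recovered counts and each library left out. Simpler forms of both tests were run on simulated counts of the compared groups alone, with many fewer changed genes than were called in the data. For limma these were log2 values of scaled counts, without the filter on low values, not variance-stabilised values. The results therefore do not measure the error of the calls reported here. In the simulated fasting of WT liver (20157 genes), edgeR found 84 of the 100 genes set to a log2 change of 1 and all 100 set to 2, and made 15 false calls. For basal CRE against GFP (13823 genes), limma found all 100 genes of either size and made 10 false calls.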

Additional observations from a re-analysis of the deposited data

Results flagged for a closer look

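These results were singled out because a test of the difference between 2 groups' responses to the same contrast passed at 0.05 after adjustment. In liver, the response to fasting differed between WT and knockout for 4 of the 48 members. Over all tested genes 12.1% passed in either direction and 5.7% with a difference below 0, so this count is near those shares. The differences were -0.64 for Sdhd, -0.63 for Ndufa7, -0.60 for Ndufs7 and -0.51 for Uqcrfs1 on the log2 scale (edgeR). All 4 rose on fasting in WT liver and did not pass in knockout liver. In MEFs, the change from the deprived heading differed between cultures headed GFP and CRE for 28 members at 1 h and 43 members at 4 h of replenishment (limma). Of all tested genes 66.5% passed at 1 h and 69.1% at 4 h in either direction, with 33.5% and 35.1% higher. At 4 h the differences on the log2 scale were 1.67 for Uqcrh, 1.08 for Ndufc1, 0.98 for Sdhd, 0.77 for Sdhc, 0.37 for Sdha and 0.30 for Sdhb. The MEF tests were added after the values were seen and rest on headings that the amino acid stress genes go against in part.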

How the results depend on the processing

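No count of members turned direction, and no named member that passed the test, as reported or under an alternative, changed sign between them. In liver, DESeq2 called 25, 0, 47 and 48 members for fasting in WT, fasting in knockout, and the knockout in fed and in fasted livers, as edgeR did, and 5 against 4 for the difference between the fasting responses. For fasting in WT liver the count of 25 was 4 with library sizes alone and 5 without a filter, and ran from 5 to 25 when 1 library was left out. For the difference between the fasting responses it was 0 with library sizes alone, 0 without a filter and 12 with Ensembl genes only, and ran from 0 to 6 when 1 library was left out; Uqcrfs1 missed the threshold under 12 alternatives, Ndufs7 under 11, Sdhd under 6 and Ndufa7 under 3. The counts with 1 library left out ran from 0 to 0 for fasting in knockout liver, from 46 to 47 for the knockout in fed and from 48 to 48 in fasted livers. In MEFs, CRE against GFP ran from 33 to 39 in basal medium, 25 to 33 in deprived medium, 10 to 15 at 1 h and 29 to 40 at 4 h with 1 library left out. From basal to deprived the counts ran from 4 to 11 in GFP and 4 to 7 in CRE, from deprived to 1 h from 13 to 18 and 24 to 29, and from deprived to 4 h from 38 to 40 and 16 to 37. The differences between headings ran from 0 to 0 for deprivation, 27 to 33 for 1 h and 41 to 44 for 4 h. Deprivation in GFP gave 5 without a filter, 1 h after deprivation in GFP gave 26 with a common median, and the difference for deprivation gave 1 when symbols just outside the rule were added. The causes were not tested. A common median changed the split of all genes for basal CRE from 4127 higher and 3986 lower to 3204 and 5111. With the replicate number as a block in MEFs the counts for basal, deprived, 1 h and 4 h CRE were 38, 34, 16 and 37, and no count of members moved by over 1.5 times; no paired analysis was possible in liver because the columns carry no number. edgeR on the recovered MEF counts called 36 higher and 1 lower at 4 h of replenishment. The effect of depth on single genes was not tested.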
